A study of Homo sapiens with 6 samples.

Results

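The genes of the Mediator complex were described in RNA from lyophilized and control human B-lymphoblastoid cells. They were taken by symbol from the tables of expression values: every symbol made of MED and a number, with or without a closing L, together with CDK8, CDK19 and CCNC. This gave 33 genes of the 23284 gene symbols in the files, each listed at a single locus. The samples were 3 control and 3 lyophilized batches of GM12873, an Epstein-Barr virus-transformed B-lymphoblastoid cell line. Control cells were washed and put into trizol without drying, whereas lyophilized cells were freeze-dried in 0.1 M trehalose, a sugar that protects dried cells, and kept at room temperature for 2 weeks before trizol was added. The labels pair each lyophilized batch with a control batch, which gives 3 pairs, numbered 1 to 3 here. All batches came from a single line, so the spread between them is that of cultures of this line only. Values are FPKM, fragments counted per unit of transcript length and of mapped reads, from poly(A)-selected libraries.

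Mediator is a large multi-subunit coactivator that carries signals from DNA-bound transcription factors to RNA polymerase II. Its head and middle modules contact the polymerase and the general transcription factors, its tail module holds many of the surfaces that activators bind, and MED14 runs through all of them as a scaffold. A separable kinase module, made of CDK8 or CDK19 with cyclin C, MED12 or MED12L, and MED13 or MED13L, binds the core complex and competes with the polymerase. Head, middle, scaffold, tail and kinase genes numbered 12, 8, 1, 5 and 7 here. MED27, MED28, MED29 and MED30 were counted with the head, although they are sometimes placed with the tail.

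The libraries carried the transcripts of the labelled cell type. All 8 B-lymphoblastoid markers were above 1 FPKM, and the lowest value of any of them in a sample was 18.5 FPKM, for PAX5. None of the 16 markers of T cells, monocytes, NK cells, erythroid cells, epithelium and fibroblasts reached 1 FPKM in any sample, and the T-cell gene CD3G, the NK-cell gene KLRD1 and the erythroid gene HBB were listed at 0 in all of them. The summed level of the 8 B-cell markers ranged from 1433 to 2201 FPKM in the controls, and after lyophilization from 1405 to 2118 FPKM. Fewer cells of a type and less RNA per cell cannot be told apart in such bulk samples. The study states the raw reads of each library, but the files hold FPKM and no read counts per gene, so the reads behind each value are not known and no counting interval was computed.

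Mediator genes with lower and with higher values after lyophilization differed in base composition, and therefore a short stretch of coding sequence is shown for the 4 members with the lowest and the 4 with the highest log2 fold change. Each is codons 101 to 110 of the canonical GENCODE coding sequence on GRCh37, 5′ to 3′, with the base at the third position of every codon in capitals, and the same codons were taken in every gene. The 4 with lower values in the lyophilized samples were:
MED25: atTaaGttCatGggCggGggTggTgaGagC
MED12: aaCttCtgGctGgtGacTgcAcgAtcCcaG
MED15: atGccTccTcgGggCccGggAcaGtcTctG
MED16: gcCgaCggGcaGatCaaGtgCtgGagCatG
The 4 with higher values were:
CCNC: ggAgtAgtTtcAaaTacAagAttGatTgcT
MED7: ggGagTatAaaAcgAgaAgaGaaActAgaA
MED21: gcTacAtgTctGgaGgaTgtTgtTtaTcgA
MED4: gaGaaGagAgaCagTgaTatTcaGcaGctA
Of the 10 bases in capitals, 7 were G or C in MED25, 7 in MED12, 6 in MED15 and 10 in MED16, against 1 in CCNC, 2 in MED7, 2 in MED21 and 5 in MED4. Over the whole coding sequences the share of G or C at the third codon position was 74.5% in MED25, 62.1% in MED12, 73.1% in MED15 and 88.0% in MED16. It was 35.9% in CCNC, 34.2% in MED7, 35.2% in MED21 and 39.5% in MED4. On the chromosomes, the stretches lie at chrX:70339632-70339661 in exon 3 of MED12, chr22:20909285-20909314 in exon 5 of MED15, chr19:889755-889784 in exon 4 of MED16, chr6:100006389-100006418 in exon 5 of CCNC, chr5:156566113-156566142 in exon 2 of MED7, chr12:27181260-27181289 in exon 4 of MED21 and chr13:48660451-48660480 in exon 3 of MED4. That of MED25 starts at chr19:50322549 in exon 3 and ends at chr19:50331730 in exon 4.

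In the control samples the Mediator genes were expressed at moderate and rather even levels. The mean control level was above 5 FPKM for 30 of the 33 genes and above 10 FPKM for 19. Among the 31 genes that passed the filter for testing (a group mean over 1 FPKM in either group), the median level was 10.9 FPKM, beside 10.3 FPKM over all 11134 genes that passed it. The highest and the lowest of the 31 differed by 11.2-fold. MED28, a head subunit that has also been described at the actin cytoskeleton, led with 48.6 ± 2.33 FPKM (SD, n = 3). MED8 followed with 33.3 ± 1.47 FPKM and cyclin C (CCNC) with 30.3 ± 3.50 FPKM. At the lower end stood MED31, a small middle subunit, with 4.35 ± 0.642 FPKM.

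In this order most neighbours could not be separated. Of the 32 neighbouring pairs of genes, 5 differed by more than the sum of their SDs. These breaks lay between MED28 and MED8, MED18 and MED22, MED17 and MED23, MED31 and MED13L, and MED13L and MED12L. The core was thus followed by a gap to the paralogs MED13L and MED12L, whose levels were under 1 FPKM and which were not tested. MED13L was at 0.502, 0.643 and 0.699 FPKM in the controls and at 0.610, 0.599 and 0.856 FPKM in the lyophilized samples. MED12L did not exceed 0.00871 FPKM in any sample and was listed at 0 in lyophilized sample 1.

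**Figure D1:**
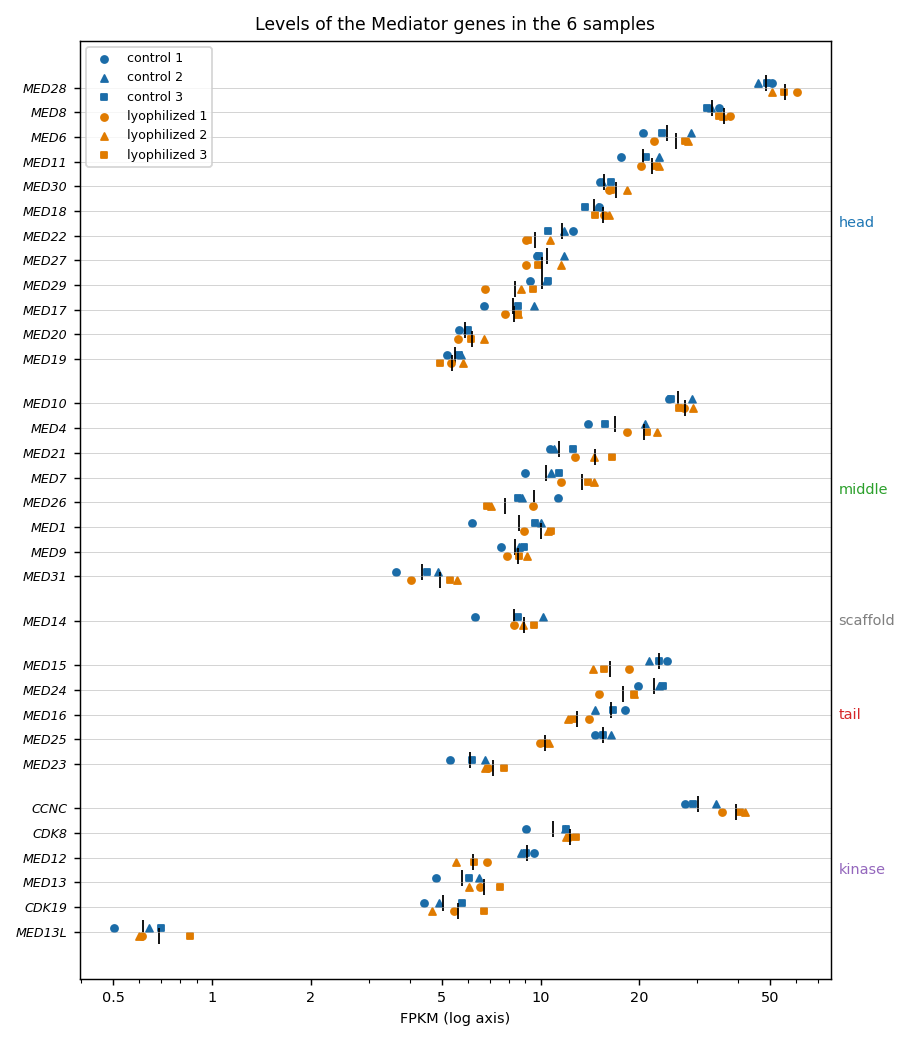
FPKM (log axis) of 32 Mediator genes in 3 control samples (blue) and 3 lyophilized samples (orange), with 1 symbol per pair and a black bar at each group mean, ordered by control mean within each module. MED28 has the highest values, MED13L the lowest, the orange points lie left of the blue ones for MED15, MED16, MED24, MED25 and MED12, and MED12L is not drawn because it was listed at 0 in a sample.

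The study asked whether RNA of cells stored dry at room temperature gives the same expression profile as RNA of fresh cells. Its own comparison did not use the pairs, and the main test here, limma on log2(FPKM + 0.1) without the pairs, followed it. In this test 0 of the 31 Mediator genes passed an adjusted p of 0.05. An unadjusted p under 0.05 was found for 7 of them, beside 1573 of all 11134 genes. Over all genes 0.575% passed, 62 with lower and 2 with higher values in the lyophilized samples. The member nearest to the threshold was MED25, with an adjusted p of 0.0656. When the pair was added to the same limma model as a block, 13 of the 31 genes passed, 8 lower and 5 higher, and so did 30.7% of all genes (14.9% lower and 15.9% higher). The same direction in all 3 pairs was seen for 20 of the 31 genes, 9 lower and 11 higher, beside 62.2% of all genes. Groups did not overlap for 9 of the 31 genes, 5 lower and 4 higher, beside 22.2% of all genes (12.6% lower and 9.66% higher).

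The paired count moved with the pair left out. It was 9 without pair 1, 20 without pair 2 and 5 without pair 3, beside 19.7%, 48.1% and 11.4% of all genes in the same fits. The 5 genes called with all pairs and without each pair in turn were MED12, MED15 and MED25, which were lower, and MED7 and CCNC, which were higher. The share of all genes called in every one of these fits was not computed, so this count has no background beside it. In the sentences below, fell and rose refer to the paired limma fit with Benjamini-Hochberg adjustment over all 11134 genes, at an adjusted p of 0.05. Fold changes are lyophilized minus control on the log2(FPKM + 0.1) scale, with the standard error (SE) of the paired fit. Adjusted p-values of the test without the pairs are given as unpaired.

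The tail module, where many activators bind, had the lowest median of the modules. Its median log2 fold change was −0.34 over 5 genes, beside 0.04 over all genes and 0.09 over the 31 Mediator genes. In the paired fits corrected for transcript GC content, and for GC content and length, the tail median was −0.17 and −0.11. MED25, MED15, MED16 and MED24 fell, and MED23 did not pass. The same fit called 14.9% of all genes lower. Transcript GC content was 55.9% to 64.8% in the tail genes that fell. Coding genes between 55% and 60% GC had a median log2 fold change of −0.15, and 32.2% of them were called lower. Those above 60% GC had a median of −0.25, and 47.0% were called lower.

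MED25 is the subunit that the activation domain of the viral protein VP16 binds. It lies at chr19:50321536-50340237 (hg19). Its level was 14.7, 16.4 and 15.5 FPKM in controls 1 to 3 and 9.96, 10.6 and 10.3 FPKM in the lyophilized samples of the same numbers. All 3 lyophilized values were below all control values, and the lyophilized mean was 0.663 times the control mean. The log2 fold change was −0.59 (SE 0.07, adjusted p = 0.000928, unpaired 0.0656), and the pairs were close to each other at −0.55, −0.63 and −0.58.

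MED15, which is contacted by the lipid-synthesis regulators of the SREBP family, lies at chr22:20861886-20941919. It was at 24.3, 21.4 and 23.0 FPKM in the controls and at 18.7, 14.5 and 15.6 FPKM in the lyophilized samples. The groups did not overlap, and the lyophilized mean was 0.710 times the control mean. A log2 fold change of −0.50 (SE 0.07, adjusted p = 0.00158, unpaired 0.155) resulted.

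MED16 and MED24 pack against each other in the tail. MED16 (chr19:867962-893218) was at 18.1, 14.6 and 16.6 FPKM in the controls and at 14.0, 12.1 and 12.6 FPKM after lyophilization. MED24 (chr17:38175350-38210889) was at 19.8, 22.9 and 23.6 FPKM in the controls and at 15.1, 19.3 and 19.3 FPKM after lyophilization. Neither gene had overlapping groups, although the lowest control value and the highest lyophilized value lay within 1 FPKM of each other in both. For MED16 the log2 fold change was −0.34 (SE 0.07, adjusted p = 0.00797, unpaired 0.279), and for MED24 −0.31 (SE 0.07, adjusted p = 0.00883, unpaired 0.364). The exons of MED16 overlap those of CFD on the other strand over 6.04% of their length, and these unstranded libraries do not tell the genes apart there.

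MED23, the tail subunit that binds the growth-factor-responsive factor ELK1, differed in sign. It was at 5.31, 6.80 and 6.17 FPKM in the controls and at 6.90, 6.79 and 7.74 FPKM in the lyophilized samples, with overlapping groups. Its log2 fold change was 0.23 (SE 0.10, adjusted p = 0.108, unpaired 0.465).

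Summed over its 5 genes, the tail stood at 82.2, 82.1 and 85.0 FPKM in the controls and at 64.6, 63.3 and 65.5 FPKM in the lyophilized samples. Its share of the summed FPKM of all 33 Mediator genes was 18.2% ± 0.946 (SD, n = 3) before and 13.7% ± 0.491 after lyophilization, with no overlap. The share of the middle module was 20.9% ± 0.851 and 22.8% ± 0.791, that of the kinase module 13.5% ± 0.576 and 15.1% ± 0.493, and that of the head 45.6% ± 1.00 and 46.6% ± 0.725. The middle and kinase shares did not overlap either, whereas the head shares did. The shares add up to the whole, so a lower tail share raises the others. The sum over all Mediator genes was 458 ± 22.6 FPKM in control and 472 ± 13.3 FPKM in lyophilized cells, with overlapping groups. It was 434, 479 and 459 FPKM in controls 1 to 3. In the lyophilized samples of the same numbers it was 456, 480 and 478 FPKM, higher in every pair. The summed FPKM of all genes was higher in every pair too. It was 502026, 463970 and 461534 in controls 1 to 3 and 518232, 495743 and 482449 in the lyophilized samples. Of that sum, Mediator made up 0.0865%, 0.103% and 0.0994% in the controls. In the lyophilized samples Mediator made up 0.0880%, 0.0968% and 0.0992%, higher in pair 1 and lower in pairs 2 and 3. The sums of Mediator genes are dominated by the most abundant members and were not tested.

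**Figure D2:**
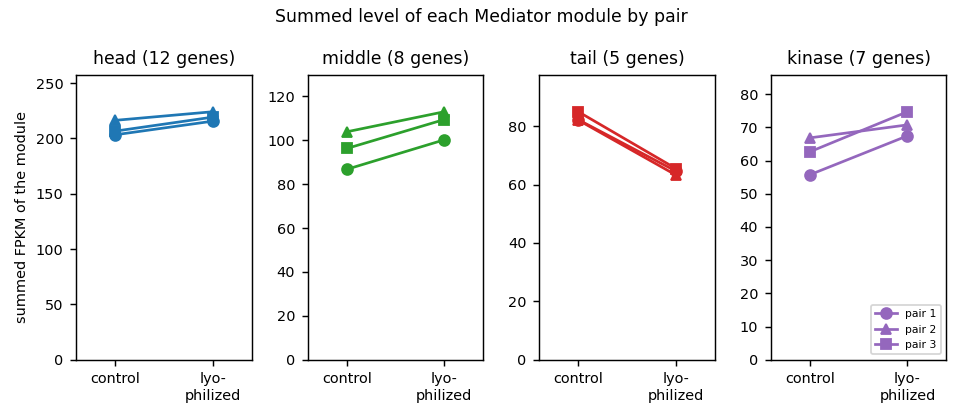
Summed FPKM of the genes of 4 Mediator modules in each control and lyophilized sample, on axes that start at 0, with a line per pair. The lines of the tail fall from between 82.1 and 85.0 to between 63.3 and 65.5 FPKM in all 3 pairs, and those of the head, middle and kinase modules rise.

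In the middle module, MED7 and MED21 form the hinge that lets Mediator change shape. Of its 8 genes, 7 had a log2 fold change above 0, beside 6271 of all 11134 genes. The median was 0.22, beside 0.04 over all genes. After the GC and the GC and length corrections the middle median was 0.07 and 0.09. MED7, MED21 and MED4 rose and MED26 fell, beside 15.9% of all genes called higher and 14.9% called lower. MED1, MED9, MED10 and MED31 did not pass.

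MED7 (chr5:156565451-156569921) was at 8.97, 10.8 and 11.4 FPKM in the controls and at 11.5, 14.6 and 13.9 FPKM in the lyophilized samples, so that the groups touched without overlapping. On the log2 scale the change was 0.36 (SE 0.08, adjusted p = 0.00826, unpaired 0.316). Its partner MED21 (chr12:27175483-27182682) was at 10.7, 11 and 12.6 FPKM and at 12.8, 14.6 and 16.5 FPKM, and likewise did not overlap. The change on the log2 scale was 0.35 (SE 0.07, adjusted p = 0.00867, unpaired 0.302).

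MED4, which makes up the other arm of the module together with MED9, had overlapping groups because culture 2 was high in both. It was at 13.9, 20.8 and 15.7 FPKM in the controls and at 18.3, 22.6 and 21.1 FPKM after lyophilization. The log2 fold change was 0.31 (SE 0.08, adjusted p = 0.0173, unpaired 0.432), with 0.39, 0.12 and 0.43 in pairs 1 to 3.

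MED26 is the subunit that recruits elongation factors and is found in the form of Mediator that lacks the kinase module. It was at 11.3, 8.79 and 8.54 FPKM in the controls and at 9.49, 7.06 and 6.89 FPKM in the lyophilized samples. Sample 1 was the highest of both groups, which made the groups overlap, while each lyophilized sample was below its own control. The log2 fold change was −0.29 (SE 0.08, adjusted p = 0.0252, unpaired 0.471). Annotated read-through genes on the same strand share 27.2% of its exonic length.

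MED1, the subunit that nuclear receptors bind, varied between cultures, at 6.18, 10.0 and 9.60 FPKM in the controls against 8.88, 10.5 and 10.8 FPKM. Its log2 fold change of 0.25 (SE 0.10, adjusted p = 0.0805) was 0.52 in pair 1 and 0.07 and 0.16 in pairs 2 and 3. MED9, MED10 and MED31 had log2 fold changes of 0.03, 0.08 and 0.18. MED31 shares 58.4% of its exonic length with TXNDC17 on the other strand, so that its low value cannot be assigned to it alone.

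The kinase module was split between its members. CCNC rose, MED12 fell, and the kinases CDK8 and CDK19 and the linker MED13 did not pass, beside 30.7% of all genes called in either direction. The median log2 fold change of the 5 tested genes was 0.18, and 0.03 and 0.04 after the GC and the GC and length corrections.

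MED12 (chrX:70338406-70362304) encodes the subunit through which cyclin C-CDK8 is activated. It was at 9.53, 8.75 and 9.03 FPKM in the controls and at 6.86, 5.54 and 6.28 FPKM in the lyophilized samples. The highest lyophilized value was well below the lowest control value, and the lyophilized mean was 0.684 times the control mean. The log2 fold change was −0.54 (SE 0.09, adjusted p = 0.00273, unpaired 0.116), with −0.47, −0.65 and −0.52 in pairs 1 to 3.

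CCNC (chr6:99990263-100016690) encodes cyclin C, the partner of both kinases. It was at 27.5, 34.2 and 29.1 FPKM in the controls and at 35.7, 41.9 and 40.5 FPKM in the lyophilized samples, with no overlap. The log2 fold change of 0.38 (SE 0.06, adjusted p = 0.00269, unpaired 0.241) was the highest among the 31 genes. TSTD3 on the other strand shares 13.1% of its exonic length.

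CDK8 and CDK19 are close relatives and alternative kinases of the module. Their codons 101 to 110 are shown as a short example, and identity over the whole transcripts was not computed:
CDK8: gaAcaTgaCctCtgGcaTatAatCaaGttT
CDK19: gaGcaTgaCttGtgGcaTatTatTaaGttT
In this stretch 25 of 30 bases were identical, and 4 of the 5 differences were at the third codon position. The longest run shared by the transcripts analysed was 19 bases, far shorter than a read of 75 bases. CDK8 was at 9.02, 11.9 and 11.9 FPKM in the controls and at 12.2, 11.9 and 12.8 FPKM in the lyophilized samples. CDK19 was at 4.41, 4.90 and 5.78 FPKM and at 5.45, 4.69 and 6.71 FPKM, below CDK8 in every sample.

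The ratio of CDK19 to CDK8 was 0.462 ± 0.0426 in control and 0.454 ± 0.0652 in lyophilized cells (SD, n = 3). The ratio of MED13L to MED13 was 0.106 ± 0.00805 and 0.102 ± 0.0106. Both were compared with an exact two-sided permutation test of 3 against 3 samples, whose smallest possible p is 0.1, and with an exact sign-flip test on the pairs, whose smallest is 0.25, so that neither could reach 0.05. The permutation p was 0.9 for CDK19 over CDK8 and 0.5 for MED13L over MED13, and 0.9 for both after adjustment over the 2 ratios. The sign-flip p was 0.75 and 0.25, and 0.75 and 0.5 after adjustment. Differences between the groups were smaller than the spread between samples in both ratios. MED12L over MED12 was not compared because MED12L was listed at 0 in a sample.

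MED13, which docks the kinase module to the core, was at 4.80, 6.48 and 6.07 FPKM in the controls and at 6.57, 6.07 and 7.54 FPKM in the lyophilized samples. Its fold change on the log2 scale was 0.22 (SE 0.12, adjusted p = 0.165), with 0.44 and 0.31 in pairs 1 and 3 and −0.09 in pair 2.

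In the head module, the part that contacts the polymerase most directly, 3 of 12 genes passed and 9 did not. The same fit called 30.7% of all genes. MED28 rose, and MED22 and MED29 fell. The median log2 fold change was 0.08.

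MED28 (chr4:17616273-17626160) was at 50.7, 46.1 and 48.9 FPKM in the controls and at 60.2, 50.8 and 55.3 FPKM in the lyophilized samples. The lowest lyophilized value lay just above the highest control value. The log2 fold change was 0.19 (SE 0.05, adjusted p = 0.0267, unpaired 0.468). FAM184B on the other strand shares 32.1% of its exonic length.

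MED22 and MED29 had overlapping groups but were lower than their own control in every pair. MED22 (chr9:136207755-136214972), part of the head next to MED11, was at 12.6, 11.8 and 10.5 FPKM and at 9.03, 10.7 and 9.17 FPKM. Its log2 fold change was −0.27 (SE 0.09, adjusted p = 0.043, unpaired 0.381). MED29 (chr19:39881963-39891203) was at 9.29, 10.4 and 10.6 FPKM and at 6.78, 8.72 and 9.52 FPKM. Here the log2 fold change was −0.28 (SE 0.09, adjusted p = 0.0378, unpaired 0.427). Both changed most in pair 1, by −0.48 and −0.45.

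The other head genes had log2 fold changes between −0.05 for MED27 and 0.12 for MED8. MED17, the core subunit around which the head is built, had a log2 fold change of 0.02 (95% interval −0.19 to 0.23). MED18 and MED20, which form the dimer at the movable end of the head, had 0.09 and 0.06. The interval of MED8 reached from −0.01 to 0.24. Of the 75-base stretches of MED27, 16.1% occur elsewhere in the genome, against at most 0.839% in the other members, and only uniquely mapped reads were kept.

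MED14, the scaffold, was at 6.30, 10.2 and 8.51 FPKM in the controls and at 8.29, 8.83 and 9.54 FPKM in the lyophilized samples. Its log2 fold change of 0.12 (SE 0.11, adjusted p = 0.442) was 0.39, −0.20 and 0.16 in pairs 1 to 3, so that it differed in sign between cultures.

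**Figure D3:**
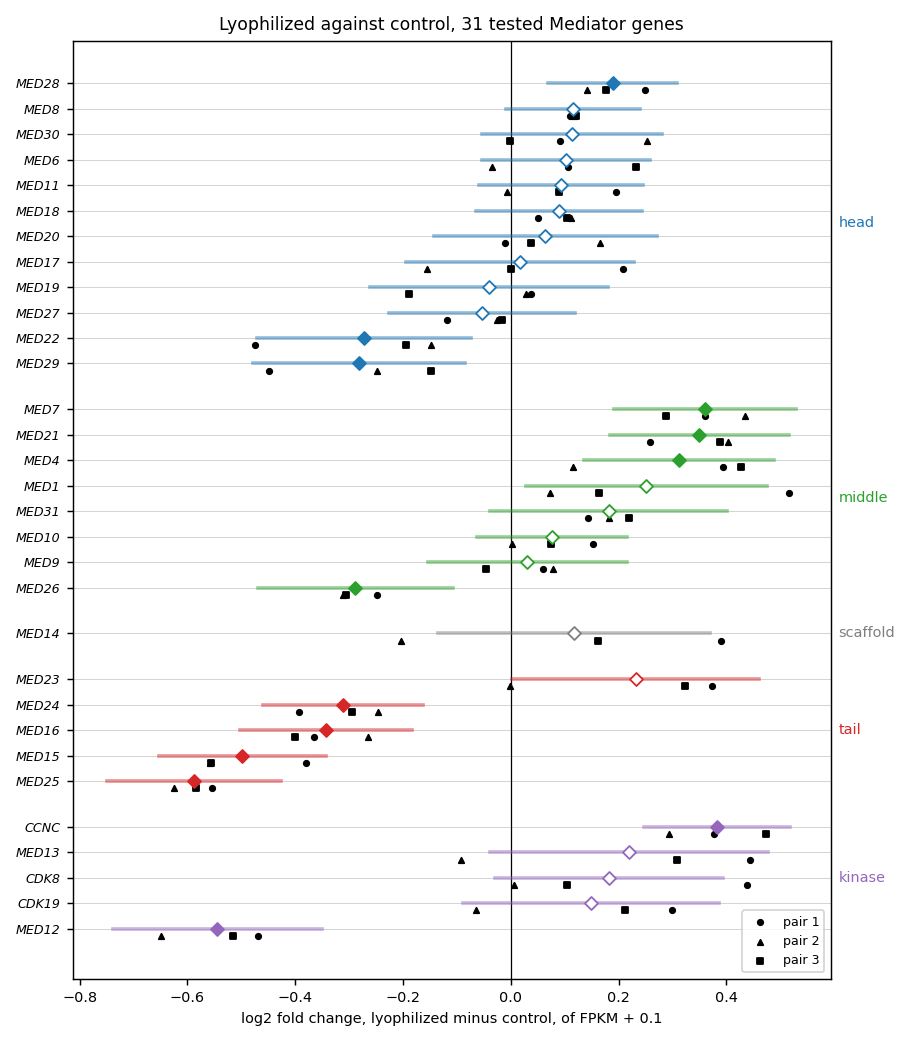
Log2 fold change of the 31 tested Mediator genes, lyophilized minus control, by module: diamonds give the fit, filled where the adjusted p of the paired fit was under 0.05, bars its 95% interval and small black symbols the 3 pairs. MED25, MED12 and MED15 lie at −0.59, −0.54 and −0.50, CCNC at 0.38, and the pairs of MED14 and MED13 fall on both sides of 0.

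Culture 1 stood below the others for many Mediator genes in both states. Control 1 was the lowest control for 23 of the 31 genes, beside 55.5% of all genes tested, and lyophilized 1 the lowest lyophilized sample for 18, beside 50.9%. For 17 genes both held. For 6 genes, MED8, MED28, MED12, MED15, MED16 and MED26, culture 1 was the highest in both groups instead. Deviations from the group mean correlated with r = 0.68, 0.46 and 0.70 between the samples of pairs 1, 2 and 3 over the 31 genes, beside 0.72, 0.60 and 0.48 over all genes tested.

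The members that fell and those that rose differed in the composition of their transcripts. The GC content of the longest coding transcript was 53.8% to 64.8% in the 8 genes that fell, with a median of 56.3%. It was 35.4% to 44.1% in the 5 that rose, with a median of 37.3%. The 18 others ranged from 38.7% in MED13 to 55.6% in MED9. Over the 31 genes, Spearman's rho between GC content and log2 fold change was −0.84 and Pearson's r −0.84, and over all 10491 coding genes tested they were −0.77 and −0.68. Within pairs 1, 2 and 3 rho over the 31 genes was −0.77, −0.57 and −0.91, beside −0.74, −0.42 and −0.78 over all coding genes. These correlations are across genes of the same 6 libraries, and genes are not independent replicates. With length, rho was −0.06 over the members and 0.05 over all coding genes. The pairs differed in this: rho with length was 0.08, −0.50 and −0.05 in pairs 1 to 3 over the members. Over all coding genes it was 0.14, −0.24 and 0.09. With the GC-corrected fold change it was −0.34 over the members and −0.28 over all coding genes. GC at the third codon position gave a rho of −0.82 over the members, beside −0.72 over the coding genes with a value. GC of the 3′ untranslated region gave −0.72, beside −0.71.

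Inside the modules, Spearman's rho between GC content and log2 fold change was −0.43 over the 12 head genes, −0.90 over the 8 middle genes, −0.30 over the 5 tail genes and −0.90 over the 5 tested kinase genes, so the order was uneven in the head and the tail. In the tail, MED15, MED16, MED24 and MED25 had transcripts of 61.0%, 64.8%, 56.7% and 55.9% GC, and MED23, which did not fall, 41.4%. Among the 4 that fell, MED25 had the largest change and, by the longest transcript, the lowest GC content. That place depended on the transcript chosen. Over all coding transcripts of a gene the median was 63.1% in MED25, against 60.2%, 64.8% and 56.4% in MED15, MED16 and MED24. The coding sequence of MED25 had 65.6% GC, the highest of the 4. In the kinase module MED12, at 53.8%, had the highest GC content and CCNC, at 37.3%, the lowest. In the head, MED22 and MED29 had the highest values, 54.6% and 53.8%. In the middle, MED26 had 60.7%, and MED21, MED4 and MED7 had the lowest at 35.4%, 35.9% and 39.6%. MED9 had 55.6% GC and a log2 fold change of 0.03, and MED11 in the head 52.6% and 0.09.

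The genes tested as a whole showed the same gradient. Of the coding genes with transcripts above 60% GC, 47.0% passed as lower and 0.819% as higher in the paired fit, and all 3 Mediator genes in this range fell. Between 50% and 55% GC, 16.6% of genes passed as lower, and 3 of 5 Mediator genes did. At 40% GC or less, 48.7% passed as higher and 0.0543% as lower, and 4 of 6 Mediator genes rose. All 4 tested members on chromosome 19, MED16, MED25, MED26 and MED29, fell. Of the 826 genes tested on chromosome 19, 32.8% passed as lower, and their median GC content was 58.5%.

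**Figure D4:**
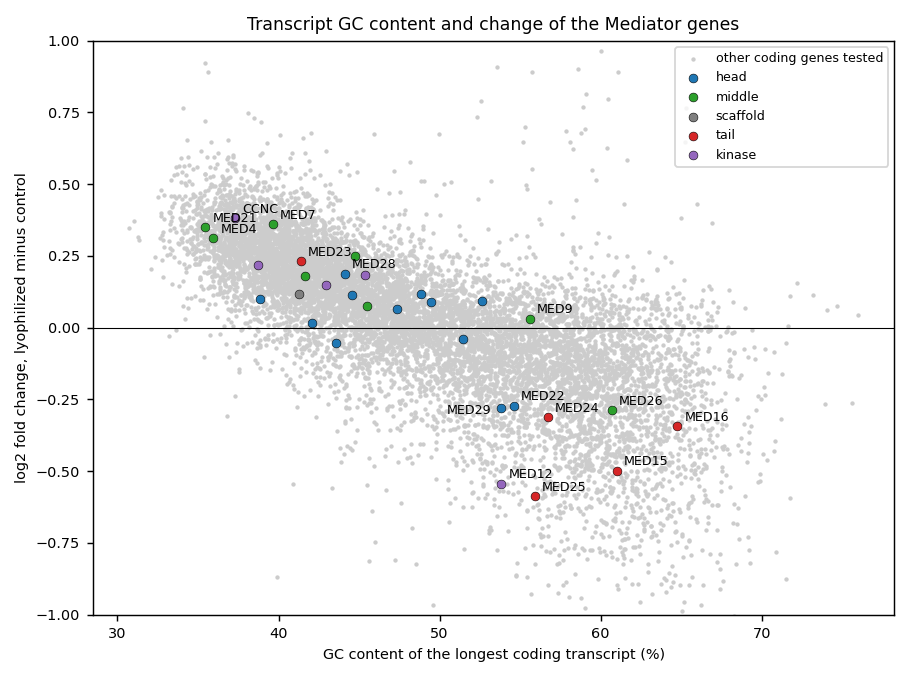
Log2 fold change, lyophilized minus control, against the GC content of the longest coding transcript for the 31 tested Mediator genes (coloured by module) over the coding genes tested (grey, with 68 genes beyond ±1 not drawn). The members run from CCNC, MED7, MED21 and MED4 at the upper left to MED15 and MED16 at the lower right, with MED12 and MED25 lowest and MED9 near 0.

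When the dependence on transcript GC content was subtracted in each sample with a loess curve and the paired limma fit was run again, 3 of the 31 genes passed, beside 16.7% of all genes (7.94% lower and 8.74% higher). The correction left part of the dependence in place. Spearman's rho between GC content and the corrected log2 fold change was −0.37 over the 31 genes and −0.16 over all coding genes tested. MED25, MED12 and MED15 stayed lower, at −0.46 (adjusted p = 0.00336), −0.44 (0.00804) and −0.30 (0.0152). MED24 had −0.17 with an adjusted p of 0.0507 and MED16 −0.09 with 0.274. None of the 5 genes that had risen passed, and CCNC was the nearest with 0.14 and an adjusted p of 0.0755. When transcript length was added to the curve, MED25 alone passed, at −0.39 (adjusted p = 0.011), beside 7.54% of all genes (4.21% lower). MED12 and MED15 then had adjusted p-values of 0.0501 and 0.0516. Both corrections used the longest transcript of each gene. In MED25 it had 55.9% GC and 4003 bases, against medians of 63.1% and 1977.5 bases over its coding transcripts. No corrected fit with another transcript was run. Without the pairs, 0 of the 31 genes passed after the GC correction. In that limma fit 3 had an unadjusted p under 0.05, beside 856 of all 10991 genes.

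**Figure D5:**
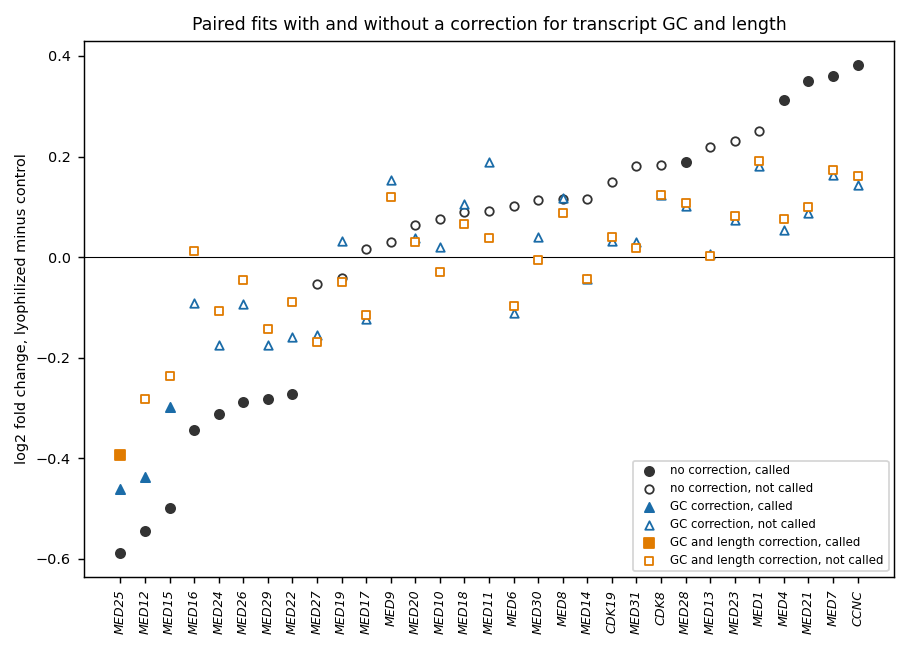
Log2 fold change of the 31 tested Mediator genes in 3 paired fits, without correction (circles), with GC correction (triangles) and with GC and length correction (squares), filled where the adjusted p was under 0.05. Most genes move towards 0 under the corrections, CCNC from 0.38 to 0.14, while MED25 moves from −0.59 to −0.46 and −0.39.

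The factors that work with Mediator at promoters and in elongation were described with the same fits. Of 31 general transcription factor genes, 0 passed without the pairs, with 3 at an unadjusted p under 0.05, beside 1573 of all 11134 genes. In the paired fit 11 passed, 3 lower and 8 higher, beside 30.7% of all genes. With pair 1, 2 or 3 left out 6, 22 and 3 passed, beside 19.7%, 48.1% and 11.4% of all genes. After the GC and the GC and length corrections 3 and 2 passed, beside 16.7% and 7.54%. TAF4, a subunit of the TATA-binding complex TFIID that activators contact, fell from 4.63 ± 0.569 to 2.96 ± 0.311 FPKM (log2 fold change −0.63, adjusted p = 0.00345). CCNH and MNAT1, which form the kinase part of TFIIH together with CDK7, rose by 0.45 and 0.36 on the log2 scale (adjusted p = 0.0136 and 0.00743). TAF9 and TAF2, further TFIID subunits, rose by 0.38 and 0.36 (adjusted p = 0.00297 and 0.0496).

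Of 16 elongation and enhancer partners, 0 passed without the pairs, with 1 at an unadjusted p under 0.05, beside 1573 of all 11134 genes. In the paired fit 7 passed, 4 lower and 3 higher, beside 30.7% of all genes. The paired count was 3, 8 and 1 with pair 1, 2 or 3 left out, beside 19.7%, 48.1% and 11.4% of all genes. It was 3 after GC correction and 0 after GC and length correction, beside 16.7% and 7.54%. The limma fit that gave 0 had 5 of these genes at an unadjusted p under 0.05, beside 2958 of all 10991 genes. NIPBL, the cohesin loader found with Mediator at active genes, rose by 0.49 in the paired fit (adjusted p = 0.0119). LARP7 and CCNT1, which hold back and activate the elongation kinase CDK9, rose by 0.39 and 0.27 (adjusted p = 0.0108 and 0.0482). The elongation factor ELL fell by 0.24 on the log2 scale (adjusted p = 0.0494). SUPT5H, a subunit of the pausing and elongation factor DSIF, fell by 0.23 (adjusted p = 0.0150).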

How the data were processed

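Poly(A)-selected TruSeq libraries made from 1 µg of total RNA were sequenced as single 75-base reads. Reads were aligned by the authors to the hg19 genome using TopHat 2.0.7 and they kept unique alignments, flagged duplicates and deposited the Cufflinks FPKM value of every gene record in each sample. The Cufflinks version and gene annotation are not given in the sources used here. The study states raw reads per library, which were not used here. The files hold no read counts per gene, so the reads behind a value are not known, and a value of 0 may be a failed estimate.

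The 24934 records were reduced to 23284 symbols by the highest mean FPKM. Non-polyadenylated small RNAs were dropped. The 11134 genes whose mean passed 1 FPKM in either group entered limma 3.58.1 (R 4.3.3) on log2(FPKM + 0.1), with a variance trend and Benjamini-Hochberg adjustment at 0.05. This scale understates changes of low genes. The main fit had no pair term, as in the study. The labels state the pairs, and deviations of paired samples correlated with r = 0.72, 0.60 and 0.48, so blocked values are given beside the main ones. Loess curves (span 0.3, degree 2) over GC content, alone or with log2 length, were subtracted per sample for the 10991 genes with a transcript in GENCODE 44 on GRCh37, matched by symbol, synonym or locus. The fits with and without the block were tested on simulated data, and the fits with a GC or length correction were not. Tables and figures were made in Python 3.11.15 with scipy 1.17.1, pandas 2.3.3 and matplotlib 3.10.9.

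The members and all gene lists were chosen with earlier results of these data known. A partner gene and a marker gene on these lists are not reported here and were left out of the lists' counts. All 33 members could be named, and of the other lists up to 5 genes each with the largest change among those past the threshold in the paired fit and in the same direction in all 3 pairs. Alternatives covered the block, GC and length, pseudocount, filters, scaling, variance trend, summing of records, the module of MED27 to MED30 and each sample or pair left out. The transcript chosen was varied for the correlation with GC content only.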

Additional observations from a re-analysis of the deposited data

How the results depend on the processing

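The count of Mediator genes past the threshold was 0 without the pairs and 13 with the replicate block. Without the pairs it stayed at 0 with a pseudocount of 0.01 or 1, without a filter, with a mean FPKM above 5, without the variance trend, with records summed, and with each sample left out, with 3 to 8 genes at an unadjusted p under 0.05 in these fits, and it was 1 (MED25) with median scaling and with quantile normalization. With the block it was 3 after GC correction and 1 after GC and length correction, and with pair 1, 2 or 3 left out it was 9, 20 and 5. With the block and, chosen after seeing the data, median scaling or quantile normalization, it was 13 and 12. Over all genes, the 64 calls without the pairs became 0 without a filter (2069 at an unadjusted p under 0.05) and 0 with any sample left out (879 to 2098 at an unadjusted p under 0.05), and the 3423 paired calls became 1834 and 829 after the corrections and 1264 to 5359 with each pair left out. The cause was not tested. With the block, calls went from 0 to 11 for general transcription factors and from 0 to 7 for elongation and enhancer partners.

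Of the 31 tested members, 21 kept the sign of their log2 fold change under every alternative run, among them 12 of the 13 called with the block. MED16 had 0.012 after GC and length correction. After GC correction, with or without the block, MED6, MED17 and MED14 had −0.11, −0.12 and −0.043 and MED19 0.032, and after GC and length correction MED6, MED17, MED14, MED30 and MED10 had −0.10, −0.12, −0.044, −0.0065 and −0.029. With 1 sample left out, values ranged from −0.011 to 0.23 for MED6, −0.014 to 0.18 for MED11, −0.12 to 0.13 for MED17, −0.10 to 0.017 for MED19, −0.15 to 0.031 for MED27, −0.038 to 0.085 for MED9 and −0.069 to 0.27 for MED14. With the replicate block and 1 pair left out, they ranged from −0.078 to 0.10 for MED17, −0.080 to 0.033 for MED19 and −0.020 to 0.28 for MED14. The log2 ratio of CDK19 to CDK8 differed between the groups by −0.033, and by −0.14 to 0.065 with 1 sample left out. In corrections of the module medians added after seeing the data, the medians of the head, middle and tail, 0.077, 0.22 and −0.34, moved by more than the spread between pairs, to 0.035, 0.071 and −0.17 with the block and GC correction and to −0.028, 0.088 and −0.11 with the block and GC and length correction. The kinase median moved by less than that spread. Under scaling, module assignment and pairs left out the module medians moved by less than that spread too, as did the median level with a control left out and the correlation with GC content with another choice of transcript, although the fold change of MED14, alone in its group, changed sign as given above. With 1 sample left out, the head, middle and tail medians moved by more than that spread in some fits. Without control 1 the head median was −0.012 and the middle median 0.047. The middle median was 0.33 without lyophilized 1, and the tail median −0.43 without control 2.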
